A study of Mus musculus with 14 samples.

Results

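The genes of cell division and DNA replication were followed in mouse brain through 41 members of 23375 genes in the deposited expression table. The members were chosen with earlier results of these data known. They were given by name as a mitotic arm of 25 genes, a replication arm of 12 genes and 4 cyclins of G1 phase. All 41 were present in the table. Poly(A) RNA had been sequenced in 14 libraries, 2 for each of 7 groups. Levels are FPKM, sequenced fragments normalised for transcript length and library size, so they can be set beside each other between genes of different length.

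Of the 7 groups, 3 are brain at embryonic stage E19.5, close to birth: wild type, KO2 and KO7. The other 4 are adult brain: KO2, KO3, and wild-type sets 1 and 2. The labels do not assign a set to a knockout. Set 1 was taken for KO2 and set 2 for KO3, since low values had been removed from KO3 and set 2 only. KO2 lacks H19-DMR and IG-DMR, and KO3 lacks Rasgrf1-DMR as well. KO7 lacks Gnas-DMR, Grb10-DMR, Igf2r-DMR, Kcnq1-DMR, Nespas-DMR, Peg3-DMR and Snrpn-DMR. A DMR is a differentially methylated region that controls imprinted genes, expressed from the copy of only one parent. The mutant animals were made with haploid embryonic stem cells that carried the deletions, so a mutant group may rest on few cell clones, whose number is not given in the sources used here. The labels do not give it, but by general knowledge of the study KO2 and KO3 combined maternal genomes and KO7 combined paternal ones. The parental origin of the genomes and the deletions then cannot be told apart.

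In a dividing cell, G1 cyclins switch on the E2F transcription factors, which turn on the genes that copy DNA. Later in the cycle the MYB-MuvB complex and FOXM1 turn on a second wave of genes. Their products build the spindle, separate the chromosomes and drive the exit from mitosis. In the brain before birth these genes mark progenitors of neurons and glia and, also, dividing cells of vessels, meninges and blood. Neurons have left the cycle, and in adult brain few cells divide.

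The promoters of the members that were furthest above wild type in E19.5 KO7 in each arm, and of Ccne1, are shown for the motifs they hold, and come from RefSeq sequences of assembly GRCm38.p6. Of the 41 members, 32 had a promoter there. Each was searched on both strands from 250 bases before to 50 bases after the gene's start for 3 motifs, whose matches may overlap. These were the cell cycle homology region (CHR, the words TTTGAA or TTCGAA), the CCAAT box, and 4 forms of the E2F site (TTTCCCGC, TTTGGCGC, TTTCGCGC, TTTGCCGC). The stretches run from 160 bases before to 30 bases after the start, 5′ to 3′ on the gene's strand, with every match in capitals. The 4 mitotic promoters shown belong to the genes for a ubiquitin-conjugating enzyme of mitotic exit (Ube2c), an activator of the anaphase-promoting complex (Cdc20), the mitotic kinase (Cdk1) and its cyclin (Ccnb1).
Ube2c (chr2:164769769-164769958, plus strand): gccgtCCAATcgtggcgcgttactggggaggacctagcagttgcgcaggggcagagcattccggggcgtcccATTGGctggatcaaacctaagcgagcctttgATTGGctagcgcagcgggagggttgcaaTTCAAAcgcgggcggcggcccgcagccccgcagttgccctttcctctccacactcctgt
Cdc20 (chr4:118437314-118437503, minus strand): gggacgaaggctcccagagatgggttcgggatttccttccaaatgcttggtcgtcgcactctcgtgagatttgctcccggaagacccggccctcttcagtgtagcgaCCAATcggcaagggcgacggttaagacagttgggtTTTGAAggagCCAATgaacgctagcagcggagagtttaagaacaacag
Cdk1 (chr10:69352883-69353072, minus strand): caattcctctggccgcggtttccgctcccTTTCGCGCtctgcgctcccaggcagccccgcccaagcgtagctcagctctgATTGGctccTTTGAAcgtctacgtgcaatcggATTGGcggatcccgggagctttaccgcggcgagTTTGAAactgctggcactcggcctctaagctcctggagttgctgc
Ccnb1 (chr13:100786457-100786646, minus strand): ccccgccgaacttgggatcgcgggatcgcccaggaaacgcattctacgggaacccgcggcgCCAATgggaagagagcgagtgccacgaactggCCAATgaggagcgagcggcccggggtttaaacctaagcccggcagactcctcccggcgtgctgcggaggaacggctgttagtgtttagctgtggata

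Of 20 mitotic promoters, 16 (80%) held a CHR word, against 19.4% of all 27025 promoters. A CCAAT box stood in 18 of them (90%, against 37.9%), and both words together stood in 16 (80%, against 7.70%). The CCAAT box was not particular to this arm, since 8 of 11 replication promoters (72.7%) held one too. Ccnb1, Birc5, Cenpe and Nusap1 had no CHR word in this window. Ccnb1 carried 2 CCAAT boxes, as its printed sequence shows. An E2F form was found in 1 of the 20, Cdk1, where it lies far upstream of its CHR words.

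For the replication arm, 3 subunits of the MCM helicase, which unwinds DNA ahead of the fork, are shown. Each holds E2F forms and CCAAT boxes and no CHR word.
Mcm6 (chr1:128359676-128359865, minus strand): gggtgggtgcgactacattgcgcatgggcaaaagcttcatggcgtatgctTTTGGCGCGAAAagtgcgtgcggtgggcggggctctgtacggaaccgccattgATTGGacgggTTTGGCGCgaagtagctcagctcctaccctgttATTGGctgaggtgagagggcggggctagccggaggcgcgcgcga
Mcm3 (chr1:20820283-20820472, minus strand): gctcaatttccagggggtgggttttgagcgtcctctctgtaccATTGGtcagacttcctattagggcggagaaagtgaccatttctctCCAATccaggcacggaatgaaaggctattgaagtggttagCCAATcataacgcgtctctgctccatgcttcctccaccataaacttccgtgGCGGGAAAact
Mcm5 (chr8:75109349-75109538, plus strand): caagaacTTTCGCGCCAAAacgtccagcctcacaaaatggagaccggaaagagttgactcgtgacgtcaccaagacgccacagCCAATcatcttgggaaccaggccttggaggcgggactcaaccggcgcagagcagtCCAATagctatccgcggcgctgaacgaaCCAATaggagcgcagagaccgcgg

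An E2F form stood in 6 of 11 replication promoters (54.5%, against 2.32% of all promoters): Mcm3, Mcm5, Mcm6, Mcm7, Cdt1 and Cdc6. The Mcm6 promoter held 3 such matches. A CHR word stood in 2 of the 11, Mcm2 and Mcm7 (18.2%). Of the 4 G1 cyclins only 1 had a promoter there, Ccne1, the member that rose with age. That promoter held none of the 3 motifs.
Ccne1 (chr7:38107461-38107650, minus strand): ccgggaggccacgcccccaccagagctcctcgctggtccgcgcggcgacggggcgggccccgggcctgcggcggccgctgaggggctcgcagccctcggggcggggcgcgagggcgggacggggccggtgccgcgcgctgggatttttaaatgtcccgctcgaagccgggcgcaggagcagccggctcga

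A match is a description of letters. It names neither a bound site nor a cause of any change below. The lack of an exact word does not show that a site is absent.

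Between 12701 and 13398 genes per library reached 1 FPKM, and the libraries of a group correlated across genes at a Pearson's r of 0.964 to 0.983. Depth is unknown, since the values carry no read totals. Adult KO3 and wild-type set 2 were handled apart before deposit: 9994 genes were listed at 0 in all 4 of these libraries, and no gene with a value had a maximum under 1.02 FPKM there. Markers of neurons were high in all 7 groups, at a summed 1472 to 2707 FPKM over 6 genes. Y-linked transcripts marked the E19.5 KO7 libraries (Eif2s3y at 22.6 and 25.03 FPKM, and at most 0.0274 FPKM elsewhere), so sex and genotype cannot be told apart in KO7. Xist was at 1.498 FPKM in E19.5 KO2 replicate 1 and at 84.0 FPKM in replicate 2. That library, adult KO3 replicate 2 and adult wild-type set 2 replicate 2 stood apart in earlier results of these data. Since nothing in the labels ties replicates to separate animals, p-values cover the spread between samples only, and this spread may be technical. A DMR is not a transcript, so its deletion cannot be read from these levels.

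Cell division and DNA replication genes lay higher in E19.5 KO7 brain than in wild type. Of the 41 members, 40 had both KO7 libraries above both wild-type libraries, where 31.0% of all tested genes did. The exception was Ccne2. In limma's fit of log2(FPKM + 1), 20 of 39 tested members rose and 0 fell at an adjusted p under 0.05. Of all 13624 tested genes 5.71% rose and 598 genes fell. A gene was tested if 2 or more of the 6 libraries reached 1 FPKM. Bub1 and Hmmr passed that minimum only through KO7, and Cdc6 and Ccne2 were not tested. Values on this log2 scale understate the change of low genes. In bulk RNA, fewer cells of a type and less RNA per cell cannot be told apart.

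**Figure D1:**
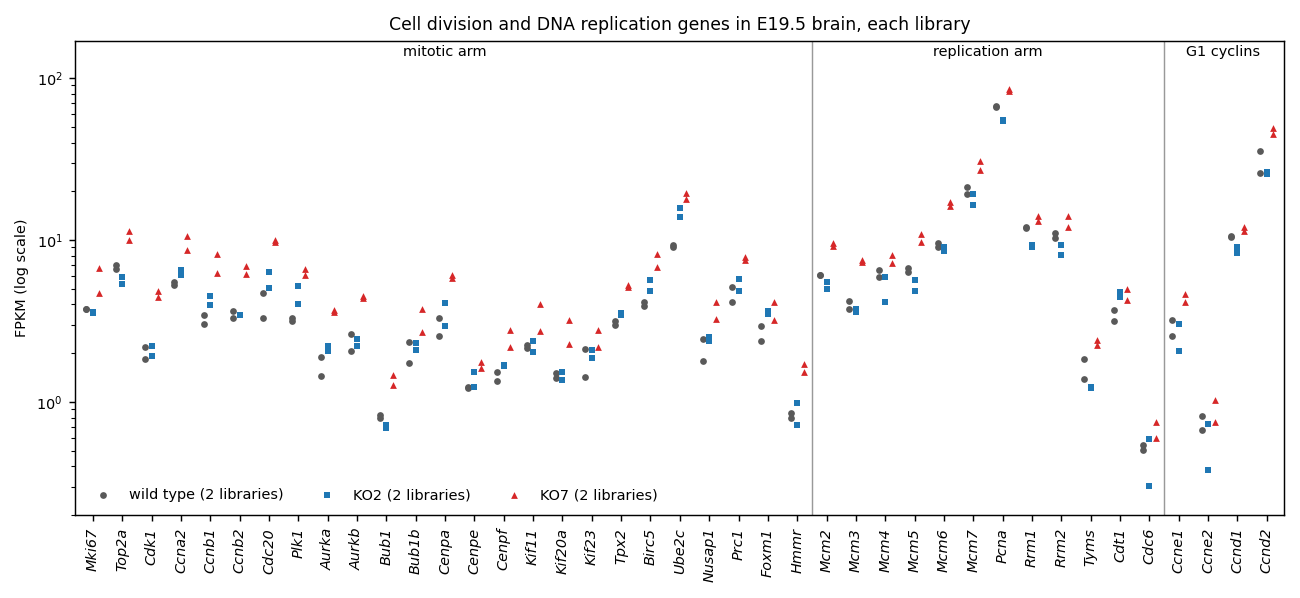
FPKM (log axis) of the 41 members in the 6 E19.5 libraries, with 1 point per library and the arms separated by vertical lines. The KO7 points lie above the wild-type points for 40 members, with Ccne2 the exception.

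The mitotic arm carried 14 of the 20 rises. Its summed level was 73.9 and 78.6 FPKM in the wild-type libraries and 131.1 and 149.1 FPKM in KO7. The ratio of group means ran from 1.37 to 2.48 over the 25 genes, with a median of 1.80. The median log2 change of the arm was 0.61, and that of all tested genes 0.0046.

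Among regulators of mitotic entry, Cdk1 was at 1.85 and 2.17 FPKM in wild type and 4.82 and 4.43 FPKM in KO7. The KO7 libraries were both more than either wild-type library, and the gene rose (log2 change 0.90, SE 0.14, limma adjusted p = 0.0119). Ccnb1, the B-type cyclin that activates the Cdk1 kinase, was at 3.02 and 3.44 FPKM in wild type and 6.23 and 8.21 FPKM in KO7 (log2 change 0.95, SE 0.16, limma adjusted p = 0.0137). Ccnb2, a second B-type cyclin, rose by 0.75 (log2), and Ccna2, the cyclin of S and G2 phases, by 0.74. The Polo-like kinase Plk1 rose by 0.79, Aurka, the kinase of the spindle poles, by 0.80, and Aurkb, the kinase of the chromosomal passenger complex, by 0.71.

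Among genes of mitotic exit, Cdc20 had the furthest change of the 41. It was at 3.28 and 4.69 FPKM in wild type and 9.997 and 9.76 FPKM in KO7 (log2 change 1.14, SE 0.17, limma adjusted p = 0.00972). The KO7 values lay close together, while the wild-type ones were spread. Ube2c was at 9.35 and 8.99 FPKM in wild type and 17.8 and 19.4 FPKM in KO7 (log2 change 0.95, SE 0.11, limma adjusted p = 0.00445). It was the highest gene of the mitotic arm in every one of the 6 E19.5 libraries.

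Structural genes of the mitotic chromosome and spindle rose too. These were Top2a, the topoisomerase that untangles sister chromatids (log2 change 0.58), the centromeric histone Cenpa (0.83), the spindle assembly factor Tpx2 (0.61), the passenger protein Birc5 (0.75) and the microtubule crosslinker Prc1 (0.64). The 11 mitotic genes that did not pass lay at log2 changes between 0.27 and 0.59. They were Mki67, the proliferation antigen, Foxm1, the checkpoint kinases Bub1 and Bub1b, the kinetochore proteins Cenpe and Cenpf, the motors Kif11, Kif20a and Kif23, and the spindle proteins Nusap1 and Hmmr. Mki67 was at 3.77 and 3.77 FPKM in wild type and 4.71 and 6.74 FPKM in KO7, where the libraries differed widely (limma adjusted p = 0.0935). A p that misses the threshold does not show that a level was the same.

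**Figure D2:**
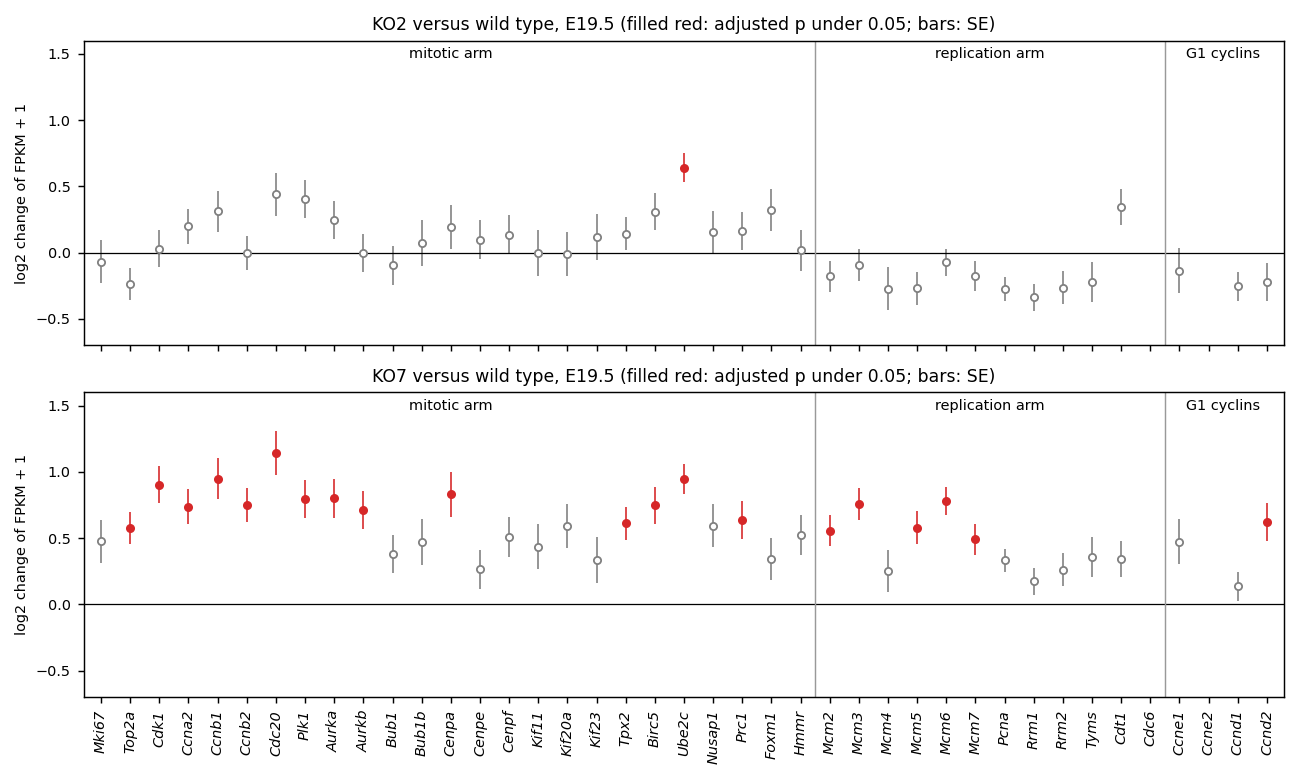
Log2 change of FPKM + 1 against E19.5 wild type for each tested member, with bars for the SE of limma's fit and filled red points for an adjusted p under 0.05. In KO7 (lower panel) all 39 points lie above 0 and 20 are filled. In KO2 (upper panel) 10 of 11 replication genes lie below 0, 19 of 25 mitotic genes lie above it, and 1 point, Ube2c, is filled.

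In the replication arm, 5 of 11 tested genes rose in KO7, each of them an MCM subunit. Its summed level was 148.5 and 145.8 FPKM in wild type and 194.2 and 203.3 FPKM in KO7. The ratio of means ran from 1.14 to 1.86 over the 12 genes, and the median log2 change was 0.36. Mcm6 was at 9.58 and 9.09 FPKM in wild type and 16.3 and 17.3 FPKM in KO7 (log2 change 0.78, SE 0.10, limma adjusted p = 0.00745). Mcm3 was at 3.73 and 4.23 FPKM in wild type and 7.47 and 7.35 FPKM in KO7 (log2 change 0.76, SE 0.12, limma adjusted p = 0.0137). Both genes had KO7 libraries well apart from wild type. Mcm5 rose by 0.58 (log2), Mcm2 by 0.56 and Mcm7 by 0.49, and Mcm4, the remaining subunit among the members, lay at 0.25 (limma adjusted p = 0.316).

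Members that load the helicase or supply nucleotides did not pass, nor did Pcna. Pcna, the sliding clamp of DNA polymerase and the most abundant member, was at 67.5 and 65.8 FPKM in wild type and 85.01 and 83.3 FPKM in KO7 (log2 change 0.33, limma adjusted p = 0.0522). The libraries of the groups do not overlap, but the change fell just outside the threshold. Rrm1 and Rrm2, the subunits of ribonucleotide reductase, lay at log2 changes of 0.17 and 0.26, thymidylate synthase (Tyms) at 0.36 and the licensing factor Cdt1 at 0.35. Cdc6, a second licensing factor, was at 0.506 and 0.544 FPKM in wild type and 0.596 and 0.755 FPKM in KO7.

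Among the G1 cyclins, Ccnd2, the D-type cyclin of neural progenitors, was at 35.5 and 25.8 FPKM in wild type and 49.1 and 45.2 FPKM in KO7 (log2 change 0.62, SE 0.14, limma adjusted p = 0.034). Both KO7 libraries were above the more variable wild-type pair. Ccne1, which drives entry into S phase, lay at a log2 change of 0.47 and Ccnd1 at 0.14, and neither passed.

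In lists of other cell cycle genes, chosen like the members with earlier results known, 12 of 36 tested mitosis genes and 3 of 38 tested replication genes rose in KO7, the latter near the 5.71% of all tested genes. Among the mitosis genes, Cdca3, a trigger of mitotic entry, was at 3.12 FPKM in wild type and 7.77 FPKM in KO7 on average, and the condensin subunit Ncapd2 at 11.8 and 20.9 FPKM. The replication genes were the polymerase subunit Pold1, Uhrf1, which guides DNA methylation to new DNA, and geminin (Gmnn), which blocks a second round of licensing. Of 26 tested regulators 2 rose, also near that share: the D-type cyclin Ccnd3 and its kinase Cdk4. No gene of these lists fell.

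An inhibitor rose as well. Cdkn1c (p57), an imprinted inhibitor of cyclin-dependent kinases in the domain of Kcnq1-DMR, was at 24.1 and 26.5 FPKM in wild type and 83.9 and 74.5 FPKM in KO7. This is 3.13 times the wild-type mean (log2 change 1.61, limma adjusted p = 0.000232). Of the other 5 tested inhibitors of these kinases none passed: Cdkn1a (p21) was at 28.2 FPKM in wild type and 27.9 FPKM in KO7 on average, and Cdkn1b (p27) at 24.9 and 28.4 FPKM.

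Markers of several cell types moved with the cell cycle genes in KO7. Of 13 tested neural progenitor markers 4 rose, led by Vim (101.2 FPKM in wild type, 243.05 in KO7) and Neurog2 (2.17 and 6.33 FPKM), and their sum over 14 genes was 1441 to 1483 FPKM in wild type and 1535 to 1799 in KO7. Vessel markers rose in 8 of 9 (sum 105.3 to 116.3 FPKM in wild type, 191.7 to 221.5 in KO7) and meningeal markers in 7 of 7 (57.7 to 81.04 and 162.4 to 183.4 FPKM). Of 6 tested erythroid markers 4 rose, their sum being 126.3 to 628.7 FPKM in wild type and 2919 to 3207 in KO7, and 2 of 6 microglial markers rose (26.6 to 30.1 and 33.7 to 41.6 FPKM). None of 6 neuronal, 6 oligodendrocyte precursor or 4 tested choroid plexus markers passed. Of the neuronal markers 5 had a log2 change below 0 and 1 above, and the same counts held for oligodendrocyte precursor markers. All 4 choroid plexus markers lay above 0, as did 10 of 13 tested progenitor markers, while 3 progenitor markers lay below. None of these markers outside the Y-linked genes was at 0 in E19.5 wild type or KO7, and their part in the cell cycle result was not tested. The count of 20 members depended on the fit. It was lower on leaving out any 1 of the 4 libraries of this comparison, which leaves 1 library in a group. All genes called higher were also fewer then, except without KO7 replicate 2. Every member tested in these fits stayed above wild type. With no minimum on low values the count was 2 of 41, where 115 of 19341 genes rose. In a fit of all 14 libraries with the wild-type sets pooled it was 3 of 40, where 110 of 14322 genes rose.

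In E19.5 KO2 brain the arms lay on different sides of wild type, and almost none of the differences passed. In the mitotic arm 19 of 25 genes had a log2 change above 0, with a median of 0.14. In the replication arm 10 of 11 tested genes lay below 0, with a median of -0.22. The median of all tested genes was -0.013. In the further lists the medians lay nearer to it, at 0.057 over 36 tested mitosis genes and -0.047 over 38 tested replication genes. A single member of 39 tested, Ube2c, rose, where 1.92% of all tested genes did. None fell, where 166 of all 13624 tested genes did. At an unadjusted p under 0.05 the count was 7 of 39, where 23.6% of all tested genes passed, so it was not above the background. The difference between the arms was not tested, and KO2 and KO7 are set against the same wild-type libraries.

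Ube2c was at 9.35 and 8.99 FPKM in wild type and 13.95 and 15.8 FPKM in KO2 (log2 change 0.64, SE 0.11, limma adjusted p = 0.026). The libraries of the groups are far apart, with KO2 between wild type and KO7. The call was lost on leaving out any one of the 4 libraries of this comparison. Beyond Ube2c, both KO2 libraries lay above both wild-type libraries in 10 further mitotic genes, making 11 of 25 (26.9% of all tested genes did so). Of 36 tested genes in the list of other mitosis genes, 12 lay above and 12 below in this way. Further members of the arm are given here. Plk1 was at 3.15 and 3.31 FPKM in wild type and 5.23 and 4.03 FPKM in KO2 (log2 change 0.40, limma adjusted p = 0.146). Cdc20 was at 6.35 and 5.09 FPKM in KO2 (log2 change 0.44, limma adjusted p = 0.162). Top2a lay on the other side, at 7.02 and 6.59 FPKM in wild type and 5.89 and 5.36 FPKM in KO2 (log2 change -0.24, limma adjusted p = 0.273).

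Replication genes with both KO2 libraries below both wild-type libraries numbered 10 of 12, where 30.9% of all tested genes did so. In the further replication list it was 11 of 38 tested genes, near that share. Cdt1 had both KO2 libraries above, and Cdc6 overlapped. Pcna was at 67.5 and 65.8 FPKM in wild type and 55.03 and 54.7 FPKM in KO2 (log2 change -0.28, SE 0.09, limma adjusted p = 0.122). The gap is wider than the spread within either group. Rrm1 was at 11.8 and 11.99 FPKM in wild type and 9.32 and 9.10 FPKM in KO2 (log2 change -0.34, SE 0.10, limma adjusted p = 0.106). Cdt1 was at 3.17 and 3.69 FPKM in wild type and 4.43 and 4.81 FPKM in KO2 (log2 change 0.34, limma adjusted p = 0.18). The G1 cyclins Ccnd1, Ccnd2 and Ccne1 lay at log2 changes of -0.25, -0.22 and -0.13.

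A single gene of the further replication list fell in KO2, where 166 of all 13624 tested genes fell. Rpa3, the smallest subunit of the single-strand binding protein RPA, was at 28.1 and 24.1 FPKM in wild type and 8.003 and 7.02 FPKM in KO2 (log2 change -1.67, limma adjusted p = 0.00166). KO2 held less than any library of wild type. None of 36 tested mitosis genes, 26 regulators or 6 inhibitors of that comparison passed. Cdkn1c was at 27.9 and 29.3 FPKM in KO2. Among markers, 1 of 13 tested for progenitors fell in KO2 (sum 1257 to 1260 FPKM, against 1441 to 1483 in wild type), and none of 9 for vessels passed (127.4 to 136.8 against 105.3 to 116.3 FPKM). Of 6 tested erythroid markers 2 rose (sum 501.3 to 869.3 against 126.3 to 628.7 FPKM), of 6 microglial ones 1 rose, of 7 meningeal ones 1 fell, and of 6 neuronal ones 1 rose and 1 fell. None of 6 oligodendrocyte precursor or 4 tested choroid plexus markers passed, and the part of these markers was not tested.

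Set directly against KO2, E19.5 KO7 was higher in 20 of 39 tested members and lower in none. Of all 13624 tested genes 6.36% were higher and 730 genes were lower. In the replication arm 9 of 11 tested genes were higher: Mcm2, Mcm3, Mcm5, Mcm6, Mcm7, Pcna, Rrm1, Rrm2 and Tyms. The mitotic arm had 10 of 25 and the G1 cyclins 1 of 3, Ccnd2. Pcna was at 55.03 and 54.7 FPKM in KO2 and 85.01 and 83.3 FPKM in KO7 (log2 change 0.61, SE 0.09, limma adjusted p = 0.00746). Rrm2 was at 8.10 and 9.34 FPKM in KO2 and 11.95 and 14.05 FPKM in KO7 (log2 change 0.53, limma adjusted p = 0.0339). Cdt1 and Foxm1 lay at log2 changes of 0.00 and 0.02, and in both groups their libraries had lain above those of wild type. Fewer members passed on leaving out any single library of KO2 or KO7, including KO2 replicate 1, the library low in Xist. All genes called higher were fewer in each of these fits too. Mcm3 and Mcm6 passed under all 17 alternatives run for this comparison. Markers differed here too: 7 of 7 meningeal, 6 of 9 vessel, 5 of 13 tested progenitor and 2 of 6 tested erythroid markers were higher in KO7, 2 of 6 oligodendrocyte precursor markers were lower, and of 6 neuronal markers 1 was higher and 2 lower. Their part was not tested, and sex cannot be told apart from genotype in this comparison either.

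From E19.5 to adulthood, nearly every member fell in wild-type brain. Of 37 tested members 35 fell, where 39.8% of all tested genes did. They included 23 of 23 tested mitotic genes and 11 of 11 tested replication genes. A single member rose, Ccne1, where 25.8% of all tested genes rose. Bub1, Hmmr, Cdc6 and Ccne2 were not tested. Mki67, Cdk1, Ccnb1, Aurka, Aurkb, Bub1b, Cenpe, Cenpf, Kif11, Kif20a, Kif23, Tpx2, Nusap1, Foxm1 and Tyms met the minimum only through E19.5 libraries. Each was under 1 FPKM in every adult library of the fit. Top2a, Ccnb2, Cdc20, Birc5 and Cdt1 reached 1 FPKM in only 1 adult library, so they too met the minimum only with E19.5 libraries. With no minimum on low values 38 of 41 members fell, where 5670 of 19599 genes did. The median log2 change was -1.18 in the mitotic arm and -1.26 in the replication arm, and -0.15 over all genes.

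**Figure D3:**
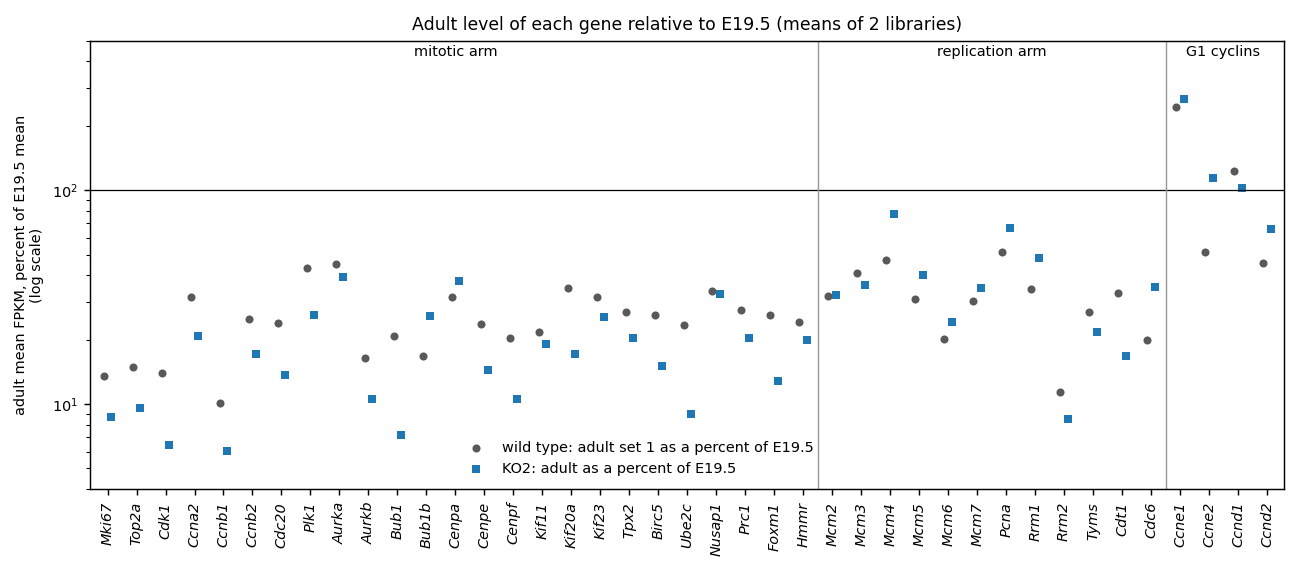
Adult mean FPKM of each member as a percent of its E19.5 mean (log axis), in wild type (set 1) and in KO2, from means of 2 libraries. Mitotic genes lie between 6.06% and 45.2%, replication genes between 8.52% and 77.8%, and Ccne1 lies at 244.2% and 266.1%.

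The adult level stood at 10.1% to 45.2% of the E19.5 level in the mitotic arm (median 24.3%) and at 11.4% to 51.2% in the replication arm (median 31.6%). Ccnb1 was at 3.02 and 3.44 FPKM at E19.5 and 0.362 and 0.289 FPKM in adult wild type (log2 change -1.67, limma adjusted p = 2.35e-05). The libraries of the stages were far apart. Rrm2, the regulated subunit of ribonucleotide reductase, was at 11.0 and 10.3 FPKM at E19.5 and 1.32 and 1.11 FPKM in adults (log2 change -2.40, limma adjusted p = 3.99e-06). Mki67 stood at 13.5% and Cdk1 at 13.97% of the E19.5 level.

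At the other end of the range, several genes kept more of their level. Pcna, which also serves DNA repair, was at 67.5 and 65.8 FPKM at E19.5 and 35.9 and 32.4 FPKM in adults (log2 change -0.95, limma adjusted p = 7.02e-05). It kept 51.2% of its level and remained the most abundant member in adult brain. Mcm4 kept 47.4%, Aurka 45.2% and Plk1 43.4%.

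The G1 cyclins parted. Ccne1 was at 2.55 and 3.19 FPKM at E19.5 and 6.77 and 7.25 FPKM in adult wild type (log2 change 1.05, SE 0.15, limma adjusted p = 0.000475). Adult libraries held 2.44 times the E19.5 mean. Ccnd2 fell, from 35.5 and 25.8 to 15.5 and 12.5 FPKM (log2 change -1.07, limma adjusted p = 0.000808). Ccnd1 was at 10.5 and 10.5 FPKM at E19.5 and 13.7 and 12.2 FPKM in adults (log2 change 0.28, limma adjusted p = 0.0886). Ccne2 was low in these libraries, with 0.823 and 0.674 FPKM at E19.5 and 0.462 and 0.309 FPKM in adults.

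Other cell cycle lists moved the same way in wild type: 26 of 33 tested mitosis genes fell and 3 rose, and 27 of 34 tested replication genes fell and none rose. Stmn1, which destabilises microtubules and is abundant in young neurons, was at 1695 FPKM at E19.5 and 425 FPKM in adults on average. Rfc3, a subunit of the loader of the Pcna clamp, went from 18.02 to 4.99 FPKM. Of 24 tested regulators 13 fell and 3 rose, with Cdk4 going from 85.8 to 26.3 FPKM and Myc from 13.4 to 1.44 FPKM. Inhibitors fell too, 4 of 6 tested: Cdkn1c from 25.3 to 3.58 FPKM, Cdkn1b from 24.9 to 10.9 FPKM, Cdkn1a from 28.2 to 8.90 FPKM and Cdkn3, a phosphatase of the Cdk family, from 1.35 to 0.355 FPKM. Over the same interval 9 of 13 tested progenitor markers fell, their sum going from 1441 to 1483 FPKM to 171.7 to 213.2 FPKM, and 6 of 6 microglial markers rose (26.6 to 30.1 FPKM, then 128 to 154.7 FPKM). Of 9 vessel markers 2 rose and 3 fell, 3 of 7 meningeal markers fell, and 3 of 6 oligodendrocyte precursor markers rose. The part of cell makeup in these changes was not tested.

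Most members also fell with age in KO2 brain. Of 37 tested members 34 fell between E19.5 and adult KO2, where 34.8% of all tested genes did. Ccne1 rose, where 3517 of all 14052 tested genes did. Thus 35 of 37 passed in either direction, where 59.8% of all tested genes did. The mitotic arm again had 23 of 23 and the replication arm 10 of 11, the exception being Mcm4 at 77.8% of its E19.5 level (limma adjusted p = 0.157). The fit is that of wild-type maturation, so the same genes met the minimum only through E19.5. With no minimum on low values 37 of 41 members fell, where 5018 of 19599 genes did. Adult KO2 levels were 6.06% to 39.4% of E19.5 in the mitotic arm (median 17.1%) and 8.52% to 77.8% in the replication arm (median 35.1%). Ccne1 was at 2.08 and 3.01 FPKM at E19.5 and 6.63 and 6.91 FPKM in adult KO2 (log2 change 1.14, limma adjusted p = 0.000415). Ube2c was at 13.95 and 15.8 FPKM at E19.5 and 1.09 and 1.57 FPKM in adult KO2 (log2 change -2.77, limma adjusted p = 9.04e-06). In the same comparison 10 of 13 tested progenitor markers fell, 6 of 6 microglial markers rose, and of 9 vessel markers 5 fell and 1 rose, and their part was not tested.

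Whether the KO2 effect changed with stage was tested as an interaction, and 0 of 37 tested members passed, where 2.28% of all tested genes did. At an unadjusted p under 0.05 the count was 8 of 37, where 25.2% of all tested genes passed. The change of Ube2c between KO2 and wild type was lower in adults than at E19.5 by 1.07 (log2 difference of changes -1.07, SE 0.21, limma adjusted p = 0.0503), just outside the threshold. The E19.5 and adult wild-type and KO2 libraries of both maturation comparisons enter this test.

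In adult brain, no member passed between KO2 and wild-type set 1 (17 tested, lowest limma adjusted p = 0.345), where 0.0602% of all tested genes did. At an unadjusted p under 0.05 the count was 2 of 17, where 12.5% of all tested genes passed. For the other 24 members adult levels were too low to be tested. Over all 25 mitotic genes, 21 means were lower in KO2, and both KO2 libraries lay below both wild-type libraries in 12 of them (15.6% of all genes above 0 did so). They lay above in 2, Bub1b and Cenpa, where 26.1% of all genes did.

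**Figure D4:**
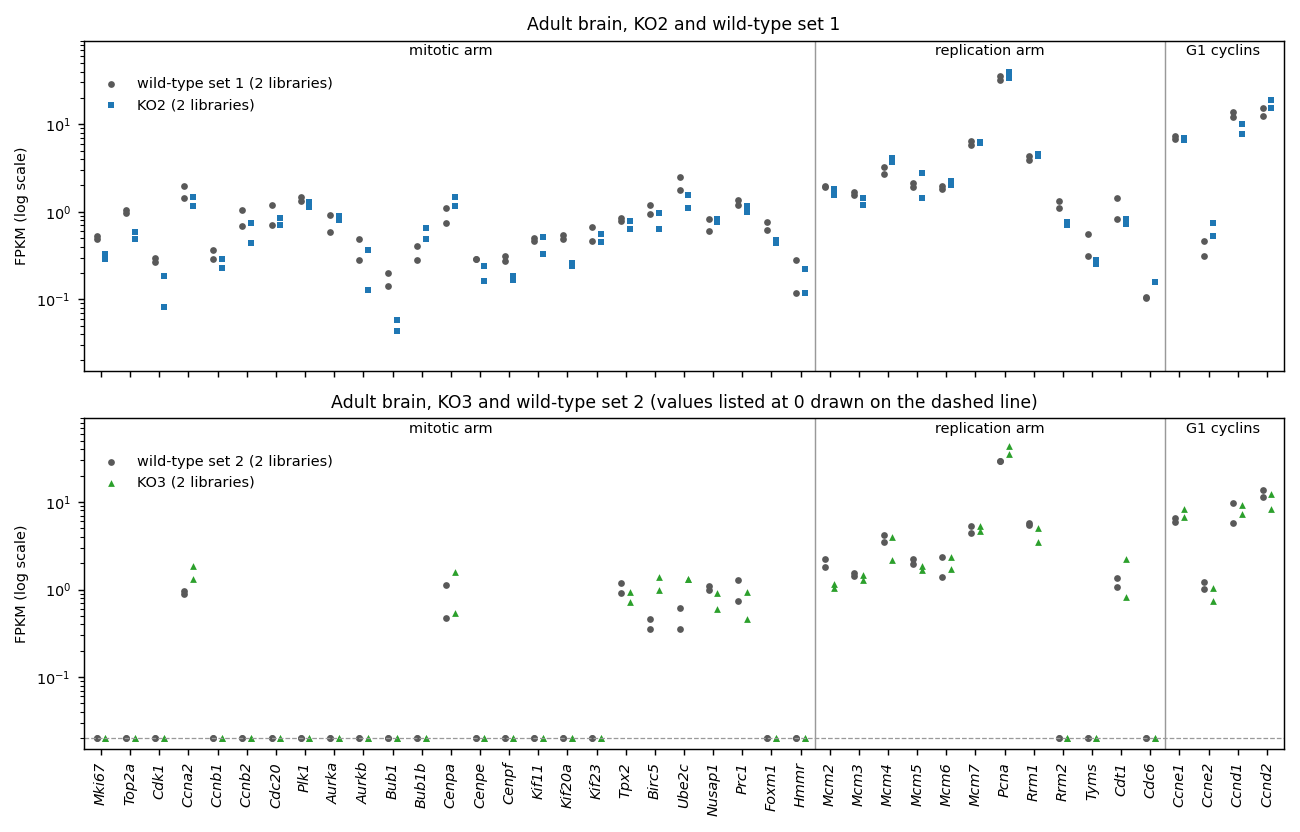
FPKM (log axis) of the 41 members in adult brain, with 1 point per library. Upper panel, KO2 and wild-type set 1. Lower panel, KO3 and wild-type set 2, where 21 members were listed at 0 in all 4 libraries and are drawn on the dashed line.

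Top2a was at 1.04 and 0.976 FPKM in wild-type set 1 and 0.492 and 0.583 FPKM in adult KO2, and was not tested. Mki67 was at 0.532 and 0.487 FPKM in set 1 and 0.331 and 0.288 FPKM in KO2. Both genes had KO2 values under those of wild type, at low levels in both groups. Ube2c, the member with a rise at E19.5, was at 1.79 and 2.51 FPKM in set 1 and 1.09 and 1.57 FPKM in KO2 (log2 change -0.43, limma adjusted p = 0.413). For this gene the adult KO2 libraries lay below those of wild type, and the E19.5 ones above. Rrm2 was at 1.32 and 1.11 FPKM in set 1 and 0.713 and 0.772 FPKM in KO2 (log2 change -0.35, limma adjusted p = 0.414). It met the minimum level for a test only through set 1. Ccnd1 was at 13.7 and 12.2 FPKM in set 1 and 7.65 and 10.01 FPKM in KO2 (log2 change -0.51, SE 0.14, limma adjusted p = 0.345), the lowest adjusted p of the 17.

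The replication arm was looked at in the same way in adults. Of 12 genes, 7 means were higher and 5 lower in adult KO2. Both KO2 libraries lay below both wild-type libraries in 4 of the 12, where 15.6% of all genes above 0 did. They lay above in 3, where 26.1% did. Mcm4 was at 2.68 and 3.23 FPKM in set 1 and 4.13 and 3.73 FPKM in KO2 (log2 change 0.32, limma adjusted p = 0.396). Pcna was at 35.9 and 32.4 FPKM in set 1 and 39.2 and 33.9 FPKM in KO2, so that the groups overlap.

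One gene of the further mitosis list fell in adult KO2. Pttg1 (securin), which holds separase inactive until anaphase, was at 16.3 and 17.7 FPKM in wild-type set 1 and 3.57 and 2.96 FPKM in adult KO2 (log2 change -2.08, limma adjusted p = 0.0346). The KO2 mean was 19.2% of the wild-type mean, and the gene passed in 7 of 15 alternatives. The lists of replication genes, regulators and inhibitors had none. Summed vessel markers were lower in adult KO2 (83.3 to 91.2 FPKM, against 118.2 to 118.7 in set 1), with 0 of 9 called and all 9 below wild type on average. Summed oligodendrocyte precursor markers were also lower (118.1 to 149.03 against 151.7 to 177.01 FPKM, with 0 of 6 called and all 6 lower). Summed progenitor markers overlapped (127.5 to 181.2 against 171.7 to 213.2 FPKM), and summed erythroid markers were higher (666.8 to 688.2 against 38.3 to 407.3 FPKM, with 0 of 4 tested called). No marker of any list passed, and their part was not tested.

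Adult KO3 and wild-type set 2 gave little to compare. Of 41 members 21 were listed at 0 in all 4 libraries: 18 of 25 mitotic genes, and Rrm2, Tyms and Cdc6 of the replication arm. Low values having been removed there, a listed 0 does not give a level, and these genes reached 1.48 FPKM at most in the other adult libraries. Of 16 members tested none passed (lowest limma adjusted p = 0.124), where 0.509% of all tested genes did. At an unadjusted p under 0.05 the count was 2 of 16, where 22.8% of all tested genes passed. A fit of all 14 libraries with the sets apart could not call members listed at 0 in both KO3 and set 2. In that fit 10 of 40 tested members lay above set 2 and 10 below. The count passing was 4 of 40, where 22.1% of all tested genes passed. Without KO3 replicate 1 it was 4 of 14, where 42.6% of all tested genes did. None of these counts was above its background. Of 4 tested erythroid markers 2 rose in KO3 (sum 78.6 to 123.7 FPKM in set 2, 999 to 1045 in KO3), and no other marker passed.

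Among the members with values, Ube2c was at 0.358 and 0.622 FPKM in set 2 and 1.32 and 1.31 FPKM in KO3 (log2 change 0.64, limma adjusted p = 0.124). The KO3 libraries are close together and above both of set 2, and the gene met the minimum level for a test only through KO3. Mcm2 was at 2.22 and 1.82 FPKM in set 2 and 1.16 and 1.04 FPKM in KO3 (log2 change -0.52, limma adjusted p = 0.192). Pcna was at 29.1 and 29.3 FPKM in set 2 and 35.8 and 43.4 FPKM in KO3 (log2 change 0.42, limma adjusted p = 0.285). Ccne1, the cyclin that was higher in adults, was at 6.56 and 5.88 FPKM in set 2 and 6.75 and 8.24 FPKM in KO3. Its level in the 8 adult libraries ran from 5.88 to 8.24 FPKM, above the 2.08 to 4.62 FPKM of the 6 E19.5 libraries.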

How the data were processed

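Poly(A) RNA of mouse brain was measured in 14 libraries, grouped by their titles into 7 groups of 2. The authors deposited FPKM values in 1 table. Of tools and builds, mm9, Cufflinks 2.2.1, TopHat2 2.1.1 and CASAVA appear in the submitters' processing notes, with no role or order. Filters, scaling between libraries and strand are not stated there. The word FPKM is left in the header of 10 libraries, and the other 4 (adult KO3 and wild-type set 2) were taken as FPKM. Depth is unknown: ratios of low values did not fall on the steps of whole reads (fullest bin 14.96% of genes over 45 pairs of libraries). Left out were 2 rows without a gene name.

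Values were taken as log2(FPKM + 1), and genes that reached 1 FPKM in 2 or more libraries of a fit were tested in R 4.3.3 with limma 3.58.1 (group means, trend, 2-sided), with Benjamini-Hochberg adjustment over all tested genes and a threshold of 0.05. The 3 E19.5 comparisons used the 6 E19.5 libraries, each adult comparison its own 4 libraries, and the maturation and interaction tests the 8 libraries of wild type and KO2, since values near 0 in adults would understate the spread at E19.5. The procedure was tested on simulated data. Alternatives were the pseudocount (0.1 and 5 FPKM), the minimum level (none and 5 FPKM), quantile and median-of-ratios scaling, limma without trend, fits of all 14 libraries, a replicate block, and leaving out libraries.

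The members and the gene lists were chosen with earlier results of these data known. Named genes are all 41 members and, from each further list, up to 3 genes with the smallest p among those called, or 2 for markers, with all inhibitors of cyclin-dependent kinases. Promoters are RefSeq sequences of GRCm38.p6, searched with exact words.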

Additional observations from a re-analysis of the deposited data

Results flagged for a closer look

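Pttg1 (securin) is flagged because its KO2 effect differed between stages by a test of the difference. The change between KO2 and wild type was lower in adults than at E19.5 by 1.80 (log2 difference of changes -1.801, limma adjusted p = 0.0114). Wild type held 12.9 and 14.3 FPKM at E19.5 and 16.3 and 17.7 FPKM in adults, and KO2 held 11.5 and 10.6 FPKM at E19.5 and 3.57 and 2.96 FPKM in adults. The call held in 14 of 19 alternatives, and the direction in all 19.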

How the results depend on the processing

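No called member changed direction under any alternative run. The median log2 change stayed above 0 in KO7 against wild type for the mitotic arm (0.37 to 0.83 over 17 alternatives) and the replication arm (0.31 to 0.51). In KO2 against wild type at E19.5 it ran from 0.053 to 0.20 and from -0.28 to -0.15. Counts of called members moved more, and the cause was not tested. Against 20 in KO7 versus wild type, there were 2 with no minimum level, 3 with all 14 libraries and sets pooled, and 3 to 20 on leaving out single libraries. All genes called higher also fell, from 778 to 115 with no minimum level and to 110 with sets pooled. They were fewer in most fits without a single library. Against 20 in KO7 versus KO2, there were 10 with no minimum, 5 with sets pooled, 7 without the 3 libraries that stand apart, and 6 to 16 on leaving out single libraries. The 1 call of E19.5 KO2 became 0 with no minimum, in both fits of all 14 libraries, without the 3 libraries, and in 4 of the fits without single libraries (0 to 1). For adult KO3, with 0 calls, there were 4 in the fit of all libraries with sets apart, 1 with sets pooled, and 0 to 4 on leaving out single libraries. Adult KO2 had 0 under every alternative. A minimum of 5 FPKM left fewer genes to test and gave 15 calls in wild-type maturation (36 otherwise) and 14 in KO2 maturation (35). The interaction, with 0 calls, had 1 under a pseudocount of 5 FPKM, a minimum of 5 FPKM, quantile scaling and the replicate block. Median-of-ratios scaling moved the median of all genes in wild-type maturation from -0.15 to -0.016, and the split of calls from 3626 higher and 5589 lower to 4443 and 4502. The labels do not say whether replicate numbers pair the samples. Same-numbered libraries correlated at -0.296 to 0.371 in their deviations, the highest being adult KO2 with wild-type set 1. There a replicate block moved the genes called from 4 higher and 4 lower to 40 and 19, with 0 members among them. With a replicate block 19 members passed in KO7 versus wild type and 16 in KO7 versus KO2. Pttg1 passed in adult KO2 in 7 of 15 alternatives. Groups of 2 libraries and values without read totals limit all of these counts.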

Other observations

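A pair of genes of the further lists differed between single groups and are given here in all libraries, as values chosen after they were seen. At E19.5, Rpa3 had 28.1 and 24.1 FPKM in the wild-type libraries, 8.003 and 7.02 FPKM in those of KO2, and 19.3 and 22.1 FPKM in those of KO7. In adults it was at 7.43 and 11.7 FPKM in wild-type set 1, 6.84 and 6.63 in KO2, 4.34 and 5.47 in set 2, and 12.9 and 9.25 in KO3. Thus E19.5 KO2 lay within the adult range for this gene. Pttg1 was at 18.9 and 12.9 FPKM in E19.5 KO7, 27.5 and 11.4 FPKM in adult set 2, and 3.31 and 86.1 FPKM in adult KO3, so the KO3 libraries differed from each other by far more than those of any other group.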
